A study of Mus musculus with 6 samples.

Results

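The genes described here are 6 ligands of the epidermal growth factor (EGF) family, Hbegf, Areg, Ereg, Tgfa, Btc and Nrg1, and 3 receptors of the ERBB family, Egfr, Erbb2 and Erbb3. They were chosen by gene symbol from the 22375 rows of the expression table, and the 9 genes were found in 10 rows. The tenth row is another record of the symbol Nrg1 (ENSMUSG00000118541), which was listed at 0 in all 6 libraries and was left aside. The RNA came from C2C12, an established line of mouse myoblasts, the mononuclear precursors of skeletal muscle fibers. The cells were grown on elastic plates coated with poly-lysine. The CON group (3 libraries) was not stretched, and the 4H group (3 libraries) was stretched cyclically at 15% elongation for 4 h as a model of mechanical overload. The comparison of 4H with CON asks how stretching changes the RNA of these cells. All libraries come from this 1 line, neither group carries a genetic change or a drug by the labels, and no label says whether the replicates were separate cultures, so the p-values measure the spread between these libraries, which may be technical.

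EGF family ligands are made as membrane-anchored precursors and are cut free by proteases at the cell surface, after which they bind ERBB receptors on the same or on nearby cells. The bound receptors pair up, phosphorylate each other and start the RAS-ERK and PI3K-AKT pathways, and the cell answers with immediate early genes and with inhibitors that dampen the receptors. EGFR is the receptor of HB-EGF, amphiregulin, epiregulin, TGF-alpha, betacellulin, epigen and EGF, whereas neuregulins bind ERBB3 and ERBB4. ERBB2 has no known ligand of its own and serves as the partner of the other receptors. In muscle, neuregulin signaling is known for its roles at the neuromuscular junction and in muscle spindles, and EGFR ligands are known for driving the proliferation of myoblasts and satellite cells.

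The values are FPKM, fragments per kilobase of transcript scaled to the mapped fragments of the library, so they are given per length and can be set side by side between genes. FPKM summed to between 395790 and 397260 in the CON libraries and to between 385146 and 387516 in the 4H libraries. The total read counts are unknown. For low genes with nearly equal values in the libraries compared, the most common ratio lay within 1.55% of equality. Only such genes were searched, so a larger difference in depth could not have been found. Correlations of log2 values over the genes tested were 0.992 to 0.993 within a group and 0.967 to 0.970 between groups. Fold changes are differences of the mean of log2(FPKM + 0.5), 4H minus CON, a scale that understates the change of low genes, and they were tested with limma over 11593 genes with Benjamini-Hochberg adjustment. Differential expression meant an adjusted p at or under 0.05 together with a log2 fold change of 1 or more in size, and a gene past the adjusted p alone is said here to have risen or fallen. With 3 libraries against 3, a two-sided exact permutation test of a single gene cannot go below p = 0.1.

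Most of the EGFR ligands and EGFR itself rose under stretching, while neuregulin 1, Erbb2 and Erbb3 did not pass the test. Of the 9 members, all of which passed the filter on low values, 6 rose (Hbegf, Areg, Ereg, Tgfa, Btc and Egfr), 0 fell and 3 did not pass. Over all genes tested, 22.6% rose and 24.1% fell. At both thresholds 4 of the 9 were higher in 4H (Hbegf, Ereg, Btc and Egfr), where 2.61% of all genes were higher and 1.28% were lower. In 7 of the 9, the 6 that rose and Erbb2, every 4H library was above every CON library, as in 27.5% of all genes. The median log2 fold change was 1.02 over the 6 ligands and 0.13 over the 3 receptors, against -0.01 over all genes tested.

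Hbegf (ENSMUSG00000024486) encodes heparin-binding EGF-like growth factor, a ligand of EGFR and ERBB4 that binds heparan sulfate on the cell surface. Its FPKM was 10.1, 8.87 and 9.62 in the CON libraries and 34.3, 31.5 and 33.6 in the 4H libraries. The groups were far apart, with the lowest 4H library above 3 times the highest CON library. The mean went from 9.54 ± 0.626 to 33.1 ± 1.45 FPKM (SD, n = 3 each), so the log2 fold change was 1.75 with an SE of 0.06 (limma, adjusted p = 3.08e-07). This was the largest change among the 9 members, and 62 of the 11593 genes tested had a larger rise.

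Btc (ENSMUSG00000082361), which encodes betacellulin, a ligand of EGFR and ERBB4, had FPKM of 3.06, 3.67 and 3.24 in CON and of 10.8, 9.24 and 10.8 in 4H. Every stretched library lay well above every control. The mean went from 3.32 ± 0.315 to 10.3 ± 0.892 FPKM (SD, n = 3 each), and the log2 fold change was 1.50 with an SE of 0.09 (limma, adjusted p = 5.76e-06). Unlike Hbegf, Btc started from a low level, near that of Egfr.

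Ereg (ENSMUSG00000029377) encodes epiregulin, another ligand of EGFR and ERBB4, and had the highest FPKM of the 9 members in both groups. It measured 26.5, 23.0 and 25.4 FPKM in CON and 57.7, 52.7 and 53.7 FPKM in 4H. The groups did not overlap and the spread within each was small. The mean rose from 24.96 ± 1.77 to 54.7 ± 2.66 FPKM (SD, n = 3 each), with a log2 fold change of 1.12 and an SE of 0.06 (limma, adjusted p = 2.74e-06).

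Areg (ENSMUSG00000029378) encodes amphiregulin, a ligand of EGFR known for its part in tissue repair. Its FPKM was 10.4, 11.6 and 12.4 in CON and 22.5, 20.2 and 24.1 in 4H, again without overlap. The mean rose from 11.5 ± 1.00 to 22.3 ± 1.98 FPKM (SD, n = 3 each). The log2 fold change of 0.93 (SE 0.08, limma, adjusted p = 5.04e-05) fell short of the fold threshold, and it did so in each of 16 alternative analyses, where it lay between 0.86 and 0.99.

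Tgfa (ENSMUSG00000029999), the gene of transforming growth factor alpha, a ligand of EGFR, was the lowest of the ligands. It measured 0.774, 0.689 and 0.491 FPKM in CON and 1.14, 0.989 and 1.22 FPKM in 4H, so the groups were apart but the gap was narrow. The mean went from 0.651 ± 0.145 to 1.11 ± 0.116 FPKM (SD, n = 3 each), with a log2 fold change of 0.49, an SE of 0.14 and an adjusted p of 0.0223 in limma. This call rested on single libraries: the adjusted p was 0.0723 without CON replicate 3, 0.0587 without 4H replicate 1 and 0.0682 without 4H replicate 3. It was 0.0780 after quantile normalization, and over all alternatives it ranged from 0.0109 to 0.0780.

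Nrg1 (ENSMUSG00000062991) encodes neuregulin 1, a ligand of ERBB3 and ERBB4. Its FPKM was 8.01, 9.52 and 7.23 in CON and 9.76, 7.28 and 8.32 in 4H, and the groups overlapped. The means were 8.26 ± 1.16 and 8.45 ± 1.25 FPKM (SD, n = 3 each), a log2 difference of 0.03 with a 95% interval from -0.25 to 0.32 (limma, adjusted p = 0.860). The interval leaves no room for a rise of the size seen in Hbegf, Btc, Ereg or Areg on this scale. A separate analysis of its isoforms was not possible from values per gene.

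**Figure D1:**
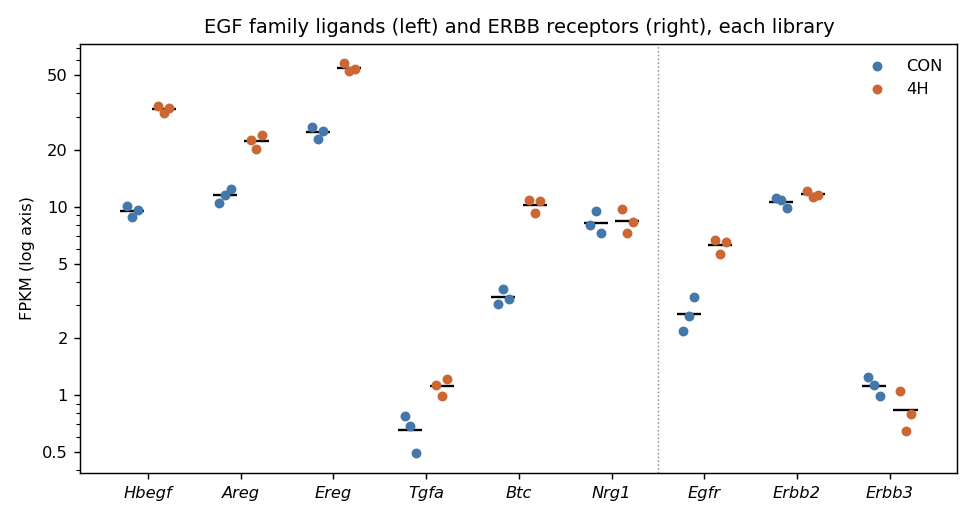
FPKM (log axis) of each of the 9 members in each library, with CON in blue, 4H in orange and a black line at each group mean (n = 3); the ligands stand left of the dotted line and the receptors right of it. The 4H points lie above all CON points for 7 genes, by the most for Hbegf and Btc, and the points overlap for Nrg1 and Erbb3.

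Among the receptors, Egfr rose and the other two did not pass the test. Egfr (ENSMUSG00000020122), the receptor of the ligands that rose, measured 2.19, 2.62 and 3.30 FPKM in CON and 6.66, 5.60 and 6.48 FPKM in 4H. The groups did not overlap. The mean rose from 2.70 ± 0.564 to 6.25 ± 0.568 FPKM (SD, n = 3 each), so the log2 fold change was 1.09 with an SE of 0.13 (limma, adjusted p = 0.000304). Egfr stood just inside the fold threshold: leaving out CON replicate 1 gave 0.97 and a pseudocount of 1 FPKM gave 0.98, while its adjusted p in limma stayed at or below 0.00187 in every alternative.

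Erbb2 (ENSMUSG00000062312), the receptor without a ligand, was the most abundant of the receptors in both groups. Its FPKM was 11.1, 10.9 and 9.88 in CON and 12.1, 11.3 and 11.5 in 4H. Each 4H library was above each CON library, but by little: the log2 difference was 0.13 with a 95% interval from -0.01 to 0.27 (limma, adjusted p = 0.121). Erbb3 (ENSMUSG00000018166), a receptor of neuregulins with little kinase activity of its own, measured 1.25, 1.13 and 0.986 FPKM in CON and 1.06, 0.647 and 0.798 FPKM in 4H. Its groups overlapped, and the log2 difference was -0.29 with a 95% interval from -0.64 to 0.06 (limma, adjusted p = 0.149).

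**Figure D2:**
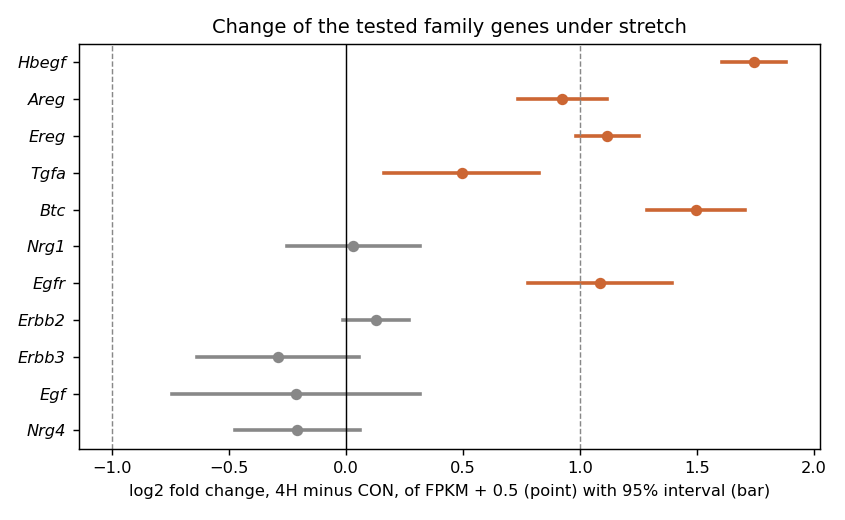
Log2 fold change (4H minus CON, of FPKM + 0.5) with its 95% interval for the 9 members and for Egf and Nrg4, the other family genes that were tested. Orange marks an adjusted p of at most 0.05, gray marks the rest, and dashed lines stand at -1 and 1; the intervals of the 6 genes that rose lie above 0, and those of Nrg1, Erbb2, Erbb3, Egf and Nrg4 include 0.

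The order of the members by mean FPKM changed between the groups. In CON it ran Ereg, Areg, Erbb2, Hbegf, Nrg1, Btc, Egfr, Erbb3 and Tgfa. The ranges of Areg and Erbb2, of Erbb2 and Hbegf, of Hbegf and Nrg1, and of Btc and Egfr overlapped, so these neighbors did not differ beyond their spread. In 4H the order was Ereg, Hbegf, Areg, Erbb2, Btc, Nrg1, Egfr, Tgfa and Erbb3, and the overlaps were those of Btc with Nrg1 and of Tgfa with Erbb3. Hbegf thus moved from below Areg, with a range that overlapped those of Erbb2 and Nrg1, to a place above Areg, Erbb2 and Nrg1. Btc moved from below Nrg1 to a level whose range overlapped that of Nrg1.

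The FPKM of the 6 ligands summed to 58.2 ± 0.761 in CON and to 129.9 ± 7.36 in 4H (SD, n = 3 each). Ereg made up 42.8 ± 2.49% of this sum in CON and 42.1 ± 1.22% in 4H. Hbegf went from 16.4 ± 0.865% to 25.5 ± 0.341%, Nrg1 from 14.2 ± 2.16% to 6.48 ± 0.613% and Btc from 5.71 ± 0.618% to 7.90 ± 0.295%. The share of Areg was 19.8 ± 1.83% in CON and 17.1 ± 1.01% in 4H, and that of Tgfa was 1.12 ± 0.247% and 0.857 ± 0.0590%. The mixture of ligand RNA therefore held more of Hbegf and less of Nrg1 after stretching, as a description of these sums without a test. The FPKM of the 3 receptors summed to 14.4 ± 0.243 in CON and 18.7 ± 1.11 in 4H, and the share of Egfr went from 18.8 ± 4.20% to 33.3 ± 1.34%, while Erbb2 remained the largest at 73.5 ± 3.39% and 62.2 ± 1.93%. In bulk RNA, a change in how many cells express a gene and a change in its RNA per cell cannot be told apart.

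**Figure D3:**
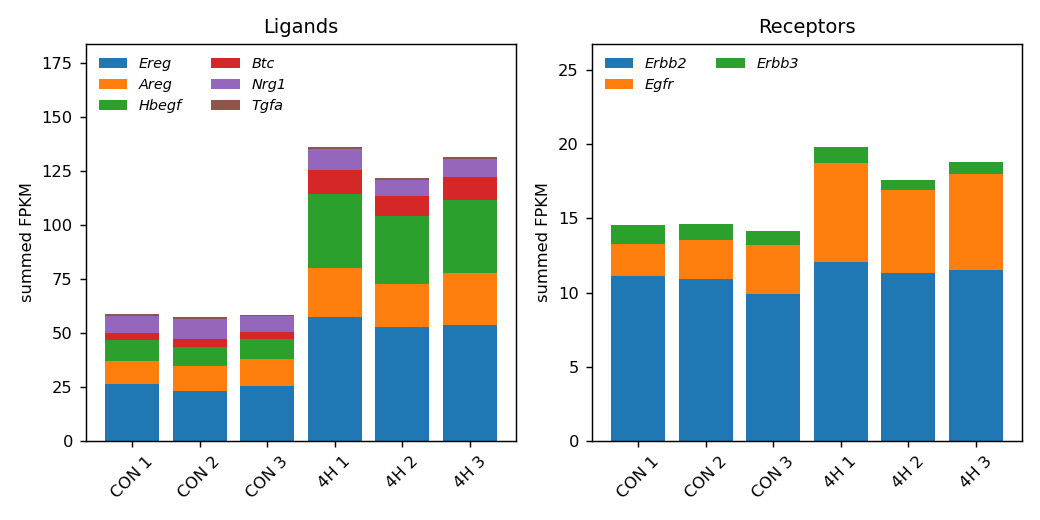
Stacked FPKM of the 6 ligands (left) and the 3 receptors (right) in each of the 6 libraries, on separate axes that start at 0. The ligand sum is 57.4 to 58.9 FPKM in CON and 121.9 to 136.2 FPKM in 4H, with the thickest added layers from Ereg and Hbegf, and the receptor sum differs mainly in the layer of Egfr.

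Of the 5 ligands that rose, 3 are neighbors. Ereg, Areg and Btc lie with Epgn, the gene of epigen, within 375.5 kb of mouse chromosome 5 (build GRCm38, the build mm10 of the submitters' processing notes). Epgn runs from 91027464 to 91035215, Ereg from 91074622 to 91093646 and Areg from 91139599 to 91148432 on the plus strand, and Btc runs from 91357261 to 91402994 on the minus strand. For all 4 the lowest 4H library exceeded the highest CON library, as in 27.5% of all genes tested. Ereg, Areg and Btc are among the members already counted above. Epgn was too low to be tested: it was listed at 0 in the 3 CON libraries and measured 0.467, 0.0585 and 0.253 FPKM in the 4H libraries.

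The genes around these ligands were looked at after the values of the ligands were seen, within 500 kb on either side. The table held 12 other genes there, of which 4 were tested and 3 rose, beside 22.6% of all genes. These 3 lie on the side of Epgn: the chemokine genes Cxcl1, from 38.3 ± 5.24 to 64.9 ± 18.1 FPKM (log2 fold change 0.73, limma, adjusted p = 0.0139), and Ppbp, from 0.987 ± 0.140 to 1.99 ± 0.768 FPKM (0.69, adjusted p = 0.0408), and the folate enzyme gene Mthfd2l, from 6.15 ± 0.761 to 8.24 ± 0.774 FPKM (0.40, adjusted p = 0.0133; SD, n = 3 each). Cxcl5, the fourth, measured 144.1 ± 23.3 and 180.1 ± 55.2 FPKM and did not pass (0.29, adjusted p = 0.292). The call of Ppbp was lost without any single library other than 4H replicate 2 (CON replicates 1, 2 and 3, 4H replicates 1 and 3), with adjusted p-values of 0.0731 to 0.127, and it was lost in 9 of 16 alternatives in all, the others being the replicate block (0.0525), the fit without a filter (0.0802), the fit without a trend (0.0607) and quantile normalization (0.0819). Cxcl5 passed without 4H replicate 1 (adjusted p = 0.0340). No gene beyond Btc was tested, the only one in the table being Parm1 at 0.0181 and 0.0918 FPKM. On the log2(FPKM + 0.5) scale, which compresses Ppbp at its low level, Btc, Ereg and Areg had larger fold changes than any tested neighbor. By the ratio of mean FPKM, Ppbp at 2.01 was above Areg at 1.94. Whether the rises of neighbors are linked was not tested.

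**Figure D4:**
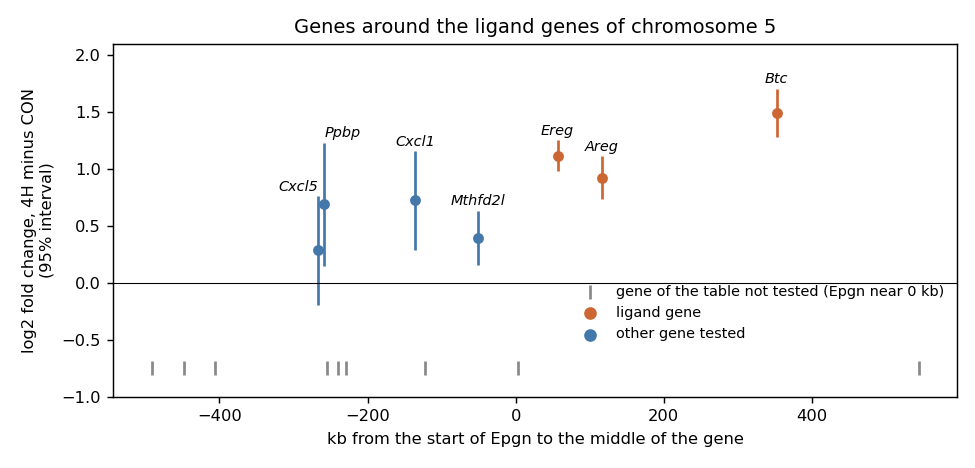
Log2 fold change (4H minus CON) with 95% interval for the tested genes around the ligand cluster, placed by the distance of the gene's middle from the start of Epgn in kb. Ligand genes are orange, other tested genes are blue, and gray ticks mark genes that were too low to be tested; Ereg, Areg and Btc stand between 0.93 and 1.50, above Cxcl5, Ppbp, Cxcl1 and Mthfd2l, which stand between 0.29 and 0.73.

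The sequence just upstream of the start was available from RefSeq (GRCm38.p6) for 5 members, Areg, Btc, Tgfa, Egfr and Erbb2. Windows of 300 bases, 250 before and 50 after the start, were searched on both strands for words that are bound by factors known from growth factor and stretch responses. The words were the cAMP response element (CRE) TGACGTCA, the AP-1 word TGANTCA, the TEAD word GGAATG and the CArG box of SRF, and the CRE and AP-1 words do not contain each other. They were found in 1.79%, 7.81%, 14.7% and 1.63% of 32851 mouse promoters of this length, in that order. Areg held the CRE, whose first base lies at -61, and Erbb2 held the TEAD word with its first base at -88, where -1 is the base before the start. Btc, Tgfa and Egfr held none of the 4 words in this window. The 100 bases before the start are shown for 3 of the genes that rose, to set the window with the CRE beside windows without it, with the CRE in capitals.
Areg, chr5:91139499-91139598, plus strand: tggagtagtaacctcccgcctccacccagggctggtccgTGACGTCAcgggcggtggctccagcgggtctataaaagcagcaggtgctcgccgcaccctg
Btc, chr5:91402995-91403094, minus strand: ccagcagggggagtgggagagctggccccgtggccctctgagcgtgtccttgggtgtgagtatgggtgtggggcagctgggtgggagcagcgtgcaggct
Egfr, chr11:16752103-16752202, plus strand: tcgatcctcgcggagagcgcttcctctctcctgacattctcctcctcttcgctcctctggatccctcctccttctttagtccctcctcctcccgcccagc
A word found in a window is a description of its letters and not a bound site.

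Of the remaining family genes, Egf, the founding member, and Nrg4, a neuregulin that binds ERBB4, were tested. Egf measured 0.498, 1.15 and 0.509 FPKM in CON and 0.420, 0.437 and 0.731 FPKM in 4H, with overlapping groups (log2 difference -0.22, limma, adjusted p = 0.476). Nrg4 measured 1.28, 1.10 and 1.15 FPKM in CON and 0.960, 0.871 and 1.02 FPKM in 4H, lower in every stretched library, with a log2 difference of -0.21 and an adjusted p of 0.177 in limma. A fit without the mean trend and quantile normalization each put Nrg4 past the test with adjusted p-values of 0.0358 and 0.0494. Fbxo22, which shares 368 exonic bases with Nrg4 on the opposite strand, was far higher, at 21.6 FPKM in CON and 20.7 FPKM in 4H. Nrg3 and Erbb4 were listed at 0 in all 6 libraries, and Nrg2 was listed at 0 in all but 1 of the 4H libraries, where it was 0.0192 FPKM. Of the 7 ligands of EGFR, 6 were tested and 5 rose, and of the 4 neuregulins, 2 were tested and 0 passed. Beside these counts, 22.6% of all genes rose and 24.1% fell. With only 2 neuregulins tested, their count is not set apart from these shares.

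The genes that act on the release of the ligands, 9 of them metalloproteases or their escorts and 1 an inhibitor, Timp3, moved in both directions. Of these 10 genes, all tested, 4 rose, 2 fell and 4 did not pass, beside 22.6% and 24.1% of all genes, and the median log2 fold change was 0.11. Adam17, the protease that cuts HB-EGF, amphiregulin, epiregulin and TGF-alpha from the membrane, fell from 26.3 ± 0.250 to 22.6 ± 0.215 FPKM, a log2 fold change of -0.21 (SD, n = 3 each, limma, adjusted p = 0.00175). Iah1, which shares 311 exonic bases with Adam17 on the opposite strand, was at 14.1 FPKM in CON and 8.96 FPKM in 4H. Adam10, known for cutting betacellulin and EGF, was at 32.3 ± 1.63 and 30.3 ± 2.47 FPKM (adjusted p = 0.256). The iRhom genes Rhbdf1 and Rhbdf2, which bring ADAM17 to the surface, had log2 differences of 0.12 and -0.22 (adjusted p = 0.0680 and 0.0734). Rhbdf1 passed with values rescaled to TPM, and Rhbdf2 passed without CON replicate 2 (adjusted p = 0.0278 and 0.0410).

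The 3 genes of this list past both thresholds were Timp3, Adam8 and Adam19, all higher in 4H, where 2.61% of all genes were higher and 1.28% lower. Timp3, the inhibitor of metalloproteases that is known to block ADAM17, measured 32.4, 36.7 and 35.2 FPKM in CON and 136.6, 123.6 and 131.3 FPKM in 4H, a log2 fold change of 1.89 with an SE of 0.05 (limma, adjusted p = 1.30e-07). It rose further than any of the 9 members. The metalloproteases Adam8 and Adam19 went from 4.34 ± 0.164 to 10.4 ± 0.472 FPKM and from 7.35 ± 0.609 to 15.3 ± 0.628 FPKM (log2 fold changes 1.17 and 1.01, adjusted p = 3.63e-06 and 1.22e-05). Adam19 was below the fold threshold without CON replicate 1 (0.95) or 4H replicate 3 (0.98) and with a pseudocount of 1 FPKM (0.97). The cutting of the ligands itself was not measured.

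The kinases and adaptors that carry the signal from the receptors moved about as often as genes in general. Of 26 genes, all tested, 6 rose, 6 fell and 14 did not pass, beside 22.6% and 24.1% of all genes that rose and fell. Their median log2 change was 0.03, and 0 passed both thresholds, beside 2.61% of all genes higher and 1.28% lower. Of these 12 calls, 4 were lost in at least 1 alternative analysis. The largest changes past the adjusted p were those of Pik3cb, a catalytic subunit of PI3K, at 0.48, and of Akt2, a kinase below PI3K, at -0.39 (limma, adjusted p = 0.000847 and 0.000151). The adaptor Grb2 went up from 22.3 ± 2.34 to 26.96 ± 0.732 FPKM (0.27, adjusted p = 0.0140). The adaptor Shc1 and the ERK gene Mapk3 did not pass, with log2 differences of -0.05 and -0.01 (adjusted p = 0.298 and 0.833).

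Most of the inhibitors of the receptors rose. Of 14 genes, all tested, 10 rose, 0 fell and 4 did not pass, beside 22.6% and 24.1% of all genes that rose and fell, with a median log2 fold change of 0.36. Errfi1, whose product MIG6 binds the kinase domain of ERBB receptors and shuts it off, measured 25.1, 25.2 and 24.98 FPKM in CON and 87.5, 83.9 and 85.3 FPKM in 4H. Its libraries hardly varied within a group, and the log2 fold change was 1.75 with an SE of 0.03 (limma, adjusted p = 3.32e-08). Spry2, a Sprouty inhibitor of receptor tyrosine kinase signaling, rose from 17.3 ± 1.31 to 36.3 ± 0.856 FPKM (1.05, adjusted p = 3.36e-06, and 0.99 without CON replicate 1). Lrig1, which promotes the removal of ERBB receptors, and Cbl, the ubiquitin ligase of EGFR, rose with log2 fold changes of 0.53 and 0.31 (adjusted p = 0.000368 and 0.00190).

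Of 22 genes known to be switched on by ERK, 21 were tested, 17 rose, 2 fell and 2 did not pass, and 10 passed both thresholds. Over all genes, 22.6% rose, 24.1% fell and 2.61% were higher at both thresholds. Spry2 is counted here as well as among the inhibitors. The median log2 fold change was 0.83. The filter on the mean of all libraries bears on this count, since Fos passed it only through the 4H group. Spry1, another Sprouty inhibitor, was left untested although it was above the filter in the controls: it measured 0.765, 0.582 and 0.603 FPKM in CON and 0.315, 0.293 and 0.370 FPKM in 4H, lower in every stretched library. The 6 largest changes were those of Egr3, Ier3, Phlda1, Spry4, Egr2 and Fos, with log2 fold changes of 1.73, 1.60, 1.53, 1.42, 1.33 and 1.33 (limma, adjusted p from 1.02e-07 to 0.000149). Egr2, Egr3 and Fos, immediate early transcription factors, were low, and Fos went from 0.185 ± 0.0539 to 1.22 ± 0.156 FPKM. The log2 fold change of Fos depended on the pseudocount, being 0.90 with 1 FPKM and 2.22 with 0.1 FPKM. Of the 10 genes past both thresholds, Fos, Spry2 and Etv1 each fell below the fold threshold in 1 alternative. Ier3 and Phlda1, early response genes, were abundant, at 289.4 ± 16.5 and 83.6 ± 3.20 FPKM after stretching.

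The phosphatase gene Dusp6, a feedback inhibitor of ERK, measured 18.2, 16.7 and 17.3 FPKM in CON and 40.3, 39.5 and 41.8 FPKM in 4H (log2 fold change 1.20, SE 0.05, limma, adjusted p = 5.31e-07). The transcription factor genes Egr1, Fosl1 and Etv4 rose below the fold threshold, with log2 fold changes of 0.75, 0.57 and 0.83 (adjusted p = 0.000310, 7.01e-05 and 4.01e-06). Etv5, an ETS factor related to Etv4, fell from 10.2 ± 0.286 to 7.86 ± 0.391 FPKM (-0.36, adjusted p = 0.00152). Myc, named after its value was seen as the other gene of this list that fell, went from 68.8 ± 1.77 to 49.2 ± 1.46 FPKM (-0.48, adjusted p = 2.03e-05; SD, n = 3 each). These genes answer many receptors, and their values do not tell which receptor was active.

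**Figure D5:**
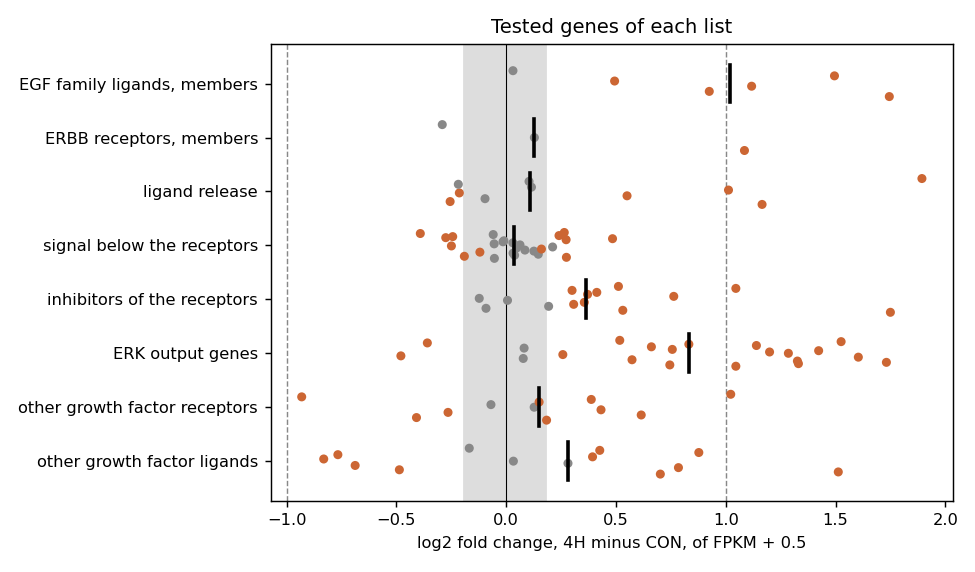
Log2 fold change (4H minus CON, of FPKM + 0.5) of every tested gene of 8 lists, with orange for an adjusted p of at most 0.05, gray for the rest, a black bar at each list's median and a gray band for the middle 50% of all genes tested. The ligands (median 1.02) and the ERK output genes (0.83) lie mostly right of the band, and the genes that carry the signal (0.03) lie around 0.

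Other growth factor systems were counted in the same way, beside the 22.6% of all genes that rose and the 24.1% that fell. At both thresholds, 2.61% of all genes were higher and 1.28% were lower. Of 16 other receptors, 11 were tested, 6 rose and 3 fell, with a median log2 fold change of 0.15. Among these calls, those of Fgfr2, which fell, and Fgfr1, which rose, were lost in 8 and 4 of 16 alternatives. Only Flt1, a receptor of vascular endothelial growth factor, passed both thresholds, from 0.946 ± 0.0789 to 2.44 ± 0.212 FPKM (1.02, limma, adjusted p = 0.000140). It was below the fold threshold in 5 of 16 alternatives, at 0.99 without CON replicate 1, 4H replicate 1 or 4H replicate 2, at 0.92 after quantile normalization and at 0.82 with a pseudocount of 1 FPKM. Of 19 other ligands, 13 were tested, 6 rose and 4 fell, with a median of 0.28, and the rise of Vegfc was lost in 7 of 16 alternatives. Fgf2, a fibroblast growth factor, was the only one past both thresholds, from 2.43 ± 0.578 to 7.74 ± 0.289 FPKM (1.51, adjusted p = 6.08e-05; SD, n = 3 each).

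The genes whose profiles over the 6 libraries were nearest to those of the 4 members past both thresholds were found by the root mean square difference of log2 values after centering each gene on its CON mean. Among those nearest to Hbegf were Mertk (0.0513) and Myod1 (0.0526). Those nearest to Ereg were Gcnt2 (0.0346), Scg2 (0.0428) and Arhgap31 (0.0465). Scg2 is a low gene, at 0.141 FPKM in CON and 0.901 FPKM in 4H, which passed the filter only through the 4H group, and its log2 values are compressed by the pseudocount of 0.5. Those nearest to Btc were Ptprn (0.0927), Tnfrsf23 (0.0943) and Pxdc1 (0.10). Egfr was nearest to Spry2 (0.103), AU018091 (0.106) and Actg2 (0.117).

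Markers of cell types were read beside these results. Their counts stand beside the 22.6% of all genes that rose and the 24.1% that fell. Myoblast markers were present: of 8 genes, 7 were tested, 5 rose and 1 fell, and they summed to between 196.2 and 205.0 FPKM in CON and between 272.6 and 286.5 FPKM in 4H, with Myod1 rising from 5.13 to 18.2 FPKM and Myf5, the other main myoblast factor, falling from 15.8 to 9.82 FPKM (limma, adjusted p = 0.000347). Markers of differentiated muscle summed to 1.80 to 2.40 FPKM in CON and 3.09 to 3.74 FPKM in 4H, with 2 of 8 tested and both higher (Mymk and Acta1), calls that Mymk lost in 3 of 15 alternatives and Acta1 in 6 of 16. Myog, the key differentiation factor, was below the filter and lower in every stretched library, at 0.217 ± 0.0743 FPKM in CON and 0.0265 ± 0.0459 FPKM in 4H (SD, n = 3 each). Of 8 blood cell markers, 3 were tested. Cd68 and Cd14 rose, and Csf1r, which passed the filter only through the 4H group, was listed at 0 in 2 CON libraries and at 0.0272 FPKM in the other, against 1.48, 0.966 and 0.792 FPKM in 4H. The summed level of these markers went from between 17.2 and 20.4 FPKM to between 32.3 and 36.0 FPKM, while Ptprc and Adgre1, the defining genes of leukocytes and macrophages, were listed at 0 in all 6 libraries. Of 8 epithelial markers only Krt14 was tested, and it rose (log2 fold change 0.55, limma, adjusted p = 0.0116). The epithelial sum was 2.91 to 4.10 FPKM in CON and 5.72 to 6.33 FPKM in 4H, with Epcam listed at 0 throughout. Endothelial markers, none of which passed the filter, summed to 0.147 to 0.287 FPKM in CON and 0.467 to 0.619 FPKM in 4H, with Emcn listed at 0. Of 6 Schwann cell markers 2 were tested and 0 passed, and the sums were 1.40 to 1.98 FPKM in CON and 1.09 to 2.09 FPKM in 4H, with Sox10 at 0. The part of the markers that moved in the rise of the ligands was not tested.

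Some of the genes named share exonic bases with a gene on the opposite strand, and it is not given in the sources used here whether the counting used strand. Among the members these are Ereg (141 bases), Tgfa (118), Nrg1 (482) and Erbb2 (9), and 0 members share exons with a gene on the same strand. The partner of Erbb2, Mien1, was at 20.2 and 23.0 FPKM, and the partners of Ereg, Tgfa and Nrg1 were not rows of the table. Hbegf, Areg, Btc, Egfr and Erbb3 have no such overlap in the annotation GENCODE M21. Other family and pathway genes named also overlap a gene on the opposite strand. They are Nrg4, Egf, Adam8, Adam17, Adam19, Timp3, Lrig1, Fosl1, Phlda1, Spry1, Fgfr1 and Fgf2. Fgf2 and Fgfr2 overlap a gene on the same strand. The partner of Fgfr2, Ctbp2, shares 314 exonic bases with it and was at 22.2 FPKM in CON and 24.8 FPKM in 4H. The values of the genes with an overlap are less certain for this reason. An exception is Timp3, whose partner, Syn3, was at 0.00123 FPKM or less in either group's mean.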

How the data were processed

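Poly(A) RNA of C2C12 cells was made into strand-specific paired-end libraries, 3 of CON and 3 of 4H, and the groups were taken from the labels. The authors deposited 1 table of FPKM values with 1 column per library, and no column belongs to another series. The build is mm10 per the submitters' processing notes, whereas which aligner, counter and annotation were used is not given in the sources used here. The 9 members and the gene lists were chosen with earlier results of these data known.

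Values were tested on log2(FPKM + 0.5) with a two-sided moderated test (limma 3.58.1, R 4.3.3, eBayes with trend). Genes entered when their mean over all 6 libraries reached 0.5 FPKM. The fit was made without a replicate block, with Benjamini-Hochberg adjustment over 11593 genes. The procedure was tested on simulated data. SDs are over 3 libraries. The text names the 9 members, 6 further family genes, fixed genes of the pathway, and from each list the genes past both thresholds (at most 6 with the largest change) or else the 2 largest past the adjusted p, plus the 3 nearest profiles of each member past both thresholds. Some genes that this rule names are not reported here. Neighbors on chromosome 5, Myc and genes named only for a limit (Spry1, Etv1, Fgfr1, Fgfr2, Vegfc) were added after their values were seen. Alternatives changed the pseudocount, the filter, the trend, the weights and the scaling, added the replicate number as a block, or left out each library in turn. Gene positions and overlaps are from GENCODE M21 (GRCm38) and promoters from RefSeq. No sequence was read from the libraries. Tables were made in Python 3.11.15 with numpy 2.4.6, pandas 2.3.3 and SciPy 1.17.1, and plots in matplotlib 3.10.9.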

Additional observations from a re-analysis of the deposited data

How the results depend on the processing

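Over the alternatives, 3 to 4 members passed both thresholds and 5 to 6 passed the adjusted p. The lower count of 3 came with a pseudocount of 1 FPKM and without CON replicate 1, where Egfr dropped below the fold threshold. The lower count of 5 came from Tgfa, which lost its call after quantile normalization and without CON replicate 3, 4H replicate 1 or 4H replicate 3, and was not tested when the filter was raised to 1 FPKM. The other 8 members stayed on the same side of the adjusted p in every alternative in which they were tested, 16 for each but Erbb3, which like Tgfa was not tested at that filter, and no change of sign was found in a called gene among 124 genes (the tested genes of all lists and 4 neighbors on chromosome 5, the neighbors and the marker lists being added after the data were seen), of which 105 kept their side throughout, 12 lost the adjusted p and 7 gained it in at least 1 alternative. Over all genes, 450 passed both thresholds. With values rescaled to TPM 703 passed, out of 12457 genes tested, and without a filter 488 passed, out of 16576. A pseudocount of 1 FPKM gave 347 and one of 0.1 FPKM gave 591. Taking the fold as the ratio of mean FPKM gave 625. Leaving out each library in turn gave 449 to 467 genes. Replicate numbers are those of the labels' replicate biosamples, while the library names number the 4H libraries 1, 3 and 4. Deviations from the group mean of libraries with the same replicate number correlated at 0.0250, -0.0929 and -0.126. Not every library correlated best with its own number, and 3 libraries a group are too few to settle whether samples were paired. CON replicate 3 and 4H replicate 2, whose library names share a number, correlated at 0.176. The replicate block used the labels' replicate numbers, so a pairing by library name was not tested. With the replicate block 452 genes passed both thresholds and 4964 the adjusted p, against 5409 without it, with 4 and 6 members. Read counts are not part of the table, so the counting error of low genes such as Tgfa and Erbb3 is unknown, and 3 libraries a group limit the precision.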
